A study of Rattus norvegicus with 20 samples.

Results

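The transcripts of the alpha-globin genes Hba-a1 and Hba-a2, of the beta-globin gene Hbb and of the erythroid anion exchanger gene Slc4a1 were followed in the choroid plexus of 20 female Zucker rats. These are 4 of the 32883 genes listed for each rat, taken by their symbols. They were chosen with their levels in these rats known, so their differences between groups are described below without a test. Hba-a1 is listed as ENSRNOG00000029886, Hba-a2 as ENSRNOG00000047321, Hbb as ENSRNOG00000058105 and Slc4a1 as ENSRNOG00000020951.

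Hemoglobin, the oxygen carrier of red cells, is a tetramer of alpha-type and beta-type globin chains, each holding a heme group. Red cell precursors make very large amounts of globin mRNA, and the reticulocyte, which has lost its nucleus, still carries it into the blood. Slc4a1 encodes band 3, the anion exchanger that swaps chloride for bicarbonate across the red cell membrane and anchors the membrane skeleton. The choroid plexus, which secretes cerebrospinal fluid, is an epithelium around a dense bed of fenestrated capillaries.

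The rats formed a pair of cohorts, all 16 weeks of age. The untreated cohort held 6 lean rats, heterozygous for the leptin receptor mutation (+/fa), and 6 obese rats, homozygous for it (fa/fa). In the injected cohort, 4 lean rats received sesame oil (lean control) and 4 obese rats received 1 mg testosterone propionate in sesame oil (obese + TT), under the skin 2 times a week during the last 4 weeks. The injected comparison joined obesity with testosterone, and injection cannot be told apart from cohort. Both kinds of plexus, from the lateral ventricles and the fourth ventricle, were dissected after decapitation under anesthesia, and each rat gave 1 library. No step to clear blood from the vessels is named in the methods used here. Rats are numbered 1 to 6 (lean), 7 to 12 (obese), 13 to 16 (lean control) and 17 to 20 (obese + TT).

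Levels are given in TPM, transcript abundances that are divided by gene length and scaled to sum to 1000000 in each rat, so that genes can be compared within a rat. How many reads each level rests on is unknown. Ttr (transthyretin), the main secretory product of the epithelium, took 25.8 to 39.3% of the TPM of each rat, and all 12 listed epithelial markers were detected. The number of genes above 0 was 14968 to 16860, with the lowest number in lean control rat 14. Of the 12 listed endothelial markers, only Plvap, a protein of fenestrated capillaries, could be matched to an identifier. It was at 39.95 to 60.34 TPM in the untreated rats and at 1.68 to 10.58 TPM in the injected rats, with the highest injected value in lean control rat 13. Rat 13 stood apart from the other lean control rats in its alpha-globin transcripts, so the injected comparison is given with and without it, a choice made after the values were seen. In such bulk tissue, fewer cells of a type and less RNA per cell cannot be told apart. Between the cohorts, neither can be told apart from other differences between them, the libraries included.

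The 250 bases before the start of the globin genes are shown so that the gene copies can be compared beside their levels. These bases are not transcribed, and no transcript sequences were compared. Promoter sequences were found for 3 of the 4 genes, and are from RefSeq on build GRCr8 at chr10:15842581-15842830 for Hba-a1, chr10:15829139-15829388 for Hba-a2, chr1:167663722-167663971 for Hbb and chr1:167650236-167650485 for the beta-like gene Hbbl1, all on the minus strand. The RefSeq genes were matched by symbol, and since RefSeq also lists Hba-a1 as an older symbol of other alpha genes, which RefSeq copy an Ensembl alpha gene is remains uncertain. Each runs 5′ to 3′ and ends at the base before the start, with capitals marking GATAA (letters read by GATA factors), CACCC (KLF factors), CCAAT (read by the factor NF-Y) and ATAAA (letters of a TATA box) on either strand:
Hba-a1: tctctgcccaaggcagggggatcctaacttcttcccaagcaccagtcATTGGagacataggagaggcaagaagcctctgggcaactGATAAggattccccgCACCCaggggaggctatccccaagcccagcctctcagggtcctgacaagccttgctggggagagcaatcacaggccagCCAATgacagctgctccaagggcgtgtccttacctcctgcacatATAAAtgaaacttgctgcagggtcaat
Hba-a2: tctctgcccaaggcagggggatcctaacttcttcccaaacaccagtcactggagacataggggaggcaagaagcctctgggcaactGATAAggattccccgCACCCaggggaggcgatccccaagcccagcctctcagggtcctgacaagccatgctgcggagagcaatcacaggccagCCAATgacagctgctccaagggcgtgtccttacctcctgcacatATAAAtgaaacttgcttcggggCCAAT
Hbb: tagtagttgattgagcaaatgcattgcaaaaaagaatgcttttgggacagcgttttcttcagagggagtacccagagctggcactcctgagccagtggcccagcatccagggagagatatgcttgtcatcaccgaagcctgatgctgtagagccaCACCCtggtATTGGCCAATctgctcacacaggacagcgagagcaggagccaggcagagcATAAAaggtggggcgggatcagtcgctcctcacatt
Hbbl1: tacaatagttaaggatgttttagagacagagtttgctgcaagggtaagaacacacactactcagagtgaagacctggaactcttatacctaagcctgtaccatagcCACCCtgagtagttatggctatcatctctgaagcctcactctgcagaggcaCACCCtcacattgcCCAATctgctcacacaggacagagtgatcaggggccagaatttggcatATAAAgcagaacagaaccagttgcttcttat

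The windows of Hba-a1 and Hba-a2 were identical at 241 of 250 aligned positions (96.4%). In both, GATAA lies 160 to 164 bases before the start, CACCC 145 to 149 bases, CCAAT 67 to 71 bases and ATAAA 23 to 27 bases. Hbb and Hbbl1 were identical at 60.93% of aligned positions, while Hbbl1 and Hbb-bs, another beta-globin gene, were identical at 93.28%. In Hbb, CACCC lies 91 to 95 bases before the start, and 2 matches to CCAAT, 1 on each strand, adjoin without overlap 77 to 86 bases before it. Of the 5 globin windows (Hba-a1, Hba-a2, Hbb, Hbb-bs and Hbbl1), 5 held CACCC, 5 held CCAAT, 5 held ATAAA and 2 held GATAA. Among 33469 RefSeq promoters of the same length, 49.22% held CACCC, 34.02% CCAAT, 39.3% ATAAA and 23.47% GATAA. These are matches of letters and not measured binding sites.

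The 3 globin transcripts were among the most abundant of the tissue, and Slc4a1 was detected at a low level. Ordered by TPM within each rat, Hba-a1 took place 16 to 61, Hbb place 37 to 162 and Hba-a2 place 46 to 233. Slc4a1 took place 11950 to 14783. All 4 were above 0 in 20 of 20 rats. Together with Hbb-bs and Hbbl1, the globin transcripts made up 0.545 ± 0.113% of the TPM in the lean rats (SD, n = 6) and 0.713 ± 0.148% in the obese rats (SD, n = 6). In the injected cohort they made up 0.493 ± 0.214% in lean control (SD, n = 4) vs. 0.917 ± 0.225% in obese + TT (SD, n = 4).

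Hba-a1, an alpha chain of adult hemoglobin, was the most abundant globin transcript in the untreated rats. It ranged from 1685 to 3045 TPM in the lean rats (median 2199) and from 2232 to 3831 TPM in the obese rats (median 2882). The obese mean was 1.27 times the lean mean, and the groups overlapped, with 3 of the 6 obese rats above every lean rat. In the lean control rats it was at 3303, 1278, 1287 and 1213 TPM in rats 13 to 16, and in the obese + TT rats at 4023, 2641, 4444 and 3110 TPM in rats 17 to 20. Lean control rat 13 lay within the range of the obese + TT rats, and the other 3 lean control rats lay below every other rat of the study. The mean of the obese + TT rats was 2.01 times that of the lean control rats. It was 2.82 times without rat 13, 1.84 times without rat 14 and 1.57 times without rats 14 and 15.

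Hba-a2, the neighbouring alpha-globin gene, followed the same order of groups. It ranged from 637 to 1012 TPM in the lean rats (median 829) and from 837 to 1399 TPM in the obese rats (median 1113). The obese mean was 1.34 times the lean mean, with overlap, and 4 of the 6 obese rats were above every lean rat. The lean control rats 13 to 16 were at 1106, 496, 476 and 409 TPM and the obese + TT rats 17 to 20 at 1359, 984, 1557 and 1191 TPM. Again rat 13 alone among the lean control rats reached the level of the obese + TT rats. The ratio of means was 2.05, with 2.77 without rat 13, 1.92 without rat 14 and 1.68 without rats 14 and 15.

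Hbb, a beta chain of adult hemoglobin, had a smaller ratio of means than the alpha-globin genes in the injected cohort with all rats. It ranged from 783 to 1414 TPM in the lean rats (median 963) and from 982 to 1789 TPM in the obese rats (median 1454), with a ratio of means of 1.35 and overlapping groups. The lean control rats 13 to 16 were at 1359, 953, 1470 and 546 TPM, and the obese + TT rats 17 to 20 at 1582, 1174, 2386 and 1497 TPM. Here rat 15 was the highest lean control rat and rat 16 the lowest rat of the study. The ratio of means was 1.53, with 1.68 without rat 13, 1.48 without rat 14 and 1.74 without rats 14 and 15. The groups overlapped in each case. Without rats 14 and 15 the ratio was thus larger than that of Hba-a1 (1.57) and Hba-a2 (1.68).

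**Figure D1:**
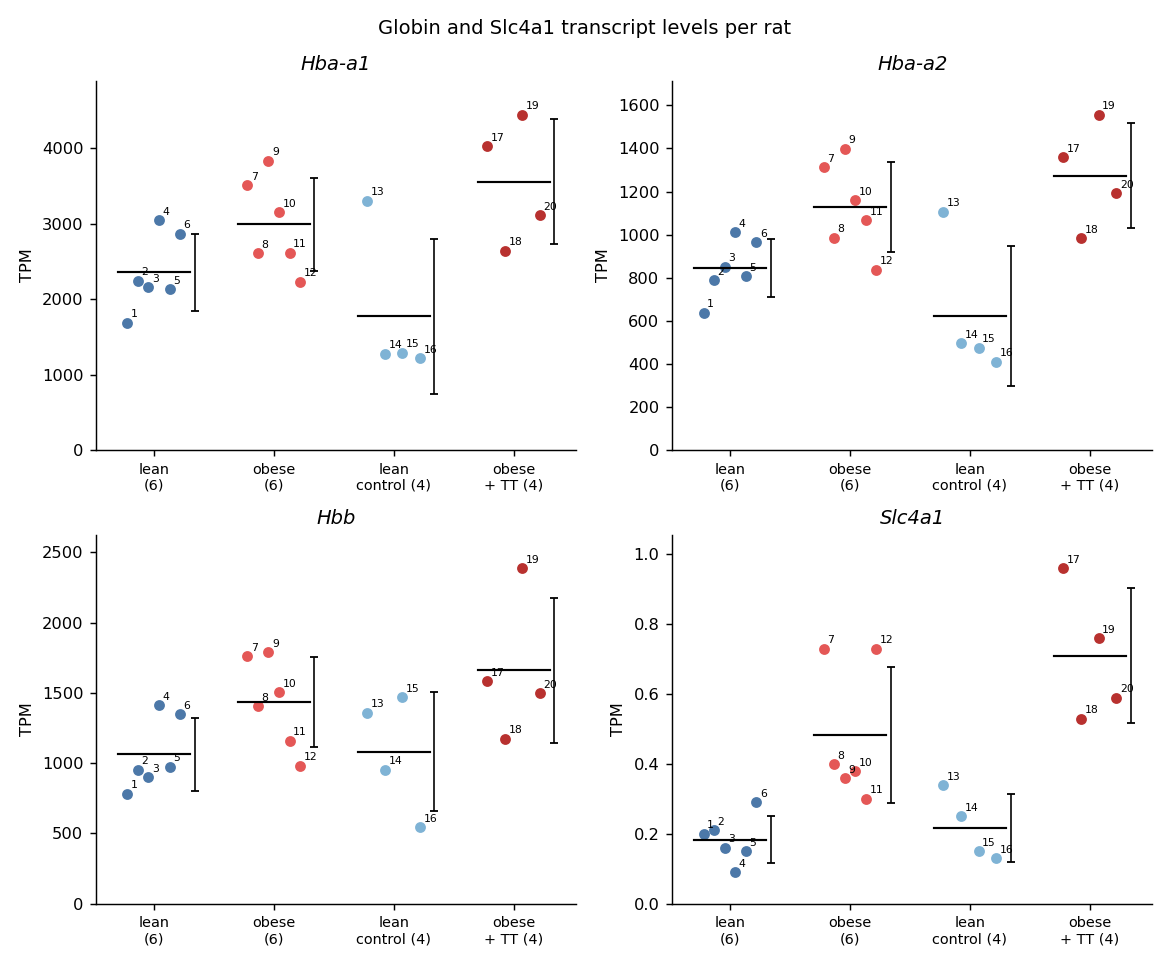
Level in TPM (vertical axis, from 0) of Hba-a1, Hba-a2, Hbb and Slc4a1 in the 4 groups, with 1 numbered point per rat, a line at the group mean and a bar of ± 1 SD. Rat 13 sits at 3303 TPM of Hba-a1 above the other lean control rats, and for Slc4a1 every obese rat lies above every lean rat of its cohort.

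Slc4a1, the red cell anion exchanger, had a mean of 0.18 ± 0.07 TPM (SD, n = 6) in lean vs. 0.48 ± 0.19 TPM (SD, n = 6) in obese rats. The lean rats ranged from 0.09 to 0.29 TPM (median 0.18) and the obese rats from 0.30 to 0.73 TPM (median 0.39). The groups did not overlap, but the highest lean rat (rat 6) and the lowest obese rat (rat 11) were 0.29 and 0.30 TPM. The lean control rats 13 to 16 were at 0.34, 0.25, 0.15 and 0.13 TPM, and the obese + TT rats 17 to 20 at 0.96, 0.53, 0.76 and 0.59 TPM. These groups did not overlap either, and rat 13 was the highest lean control rat here as well. The ratio of means was 2.64 in the untreated cohort and 3.26 in the injected cohort, and in the latter 4.02 without rat 13, 3.44 without rat 14 and 3.02 without rats 14 and 15.

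From low to high, the order of the group means was lean control, lean, obese and obese + TT for Hba-a1 and Hba-a2. For Hbb and Slc4a1 it was lean, lean control, obese and obese + TT. Every pair of neighbours in these orders had overlapping ranges. The lean control mean was 0.75 times the lean mean for Hba-a1, 0.74 times for Hba-a2, 1.02 times for Hbb and 1.19 times for Slc4a1. The obese + TT mean was 1.19 times the obese mean for Hba-a1, 1.13 times for Hba-a2, 1.16 times for Hbb and 1.47 times for Slc4a1. Between cohorts, these ratios depend on the scaling. The size factor of median-ratio scaling, by which TPM is divided, was 0.84 to 0.99 in lean and 0.86 to 1.01 in obese rats. It was 1.08 to 1.21 in lean control and 1.11 to 1.18 in obese + TT rats. Each of these ratios would be lower on that scale, where the order of groups was not computed.

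On the log2(TPM + 0.1) scale, which makes the change of a low gene such as Slc4a1 smaller than its ratio of TPM, all 4 genes were higher in the obese group of each cohort. In the untreated rats, the log2 fold change was 0.35 (standard error 0.15) for Hba-a1, 0.41 (0.13) for Hba-a2, 0.43 (0.17) for Hbb and 1.01 (0.26) for Slc4a1. In the injected rats, it was 1.12 (0.31) for Hba-a1, 1.13 (0.28) for Hba-a2, 0.67 (0.31) for Hbb and 1.37 (0.33) for Slc4a1. The median of the 4 was 0.42 in the untreated and 1.13 in the injected cohort, beside 0.02 and 0.01 over all genes tested. The alpha-globin genes showed the widest gap between the cohorts, with a difference of log2 fold changes of 0.77 (standard error 0.34) for Hba-a1 and 0.72 (0.30) for Hba-a2, against 0.23 (0.35) for Hbb and 0.36 (0.39) for Slc4a1. Without lean control rat 13, the injected log2 fold change was 1.47 (standard error 0.17) for Hba-a1, 1.45 (0.15) for Hba-a2, 0.81 (0.33) for Hbb and 1.54 (0.34) for Slc4a1. Over the fits that each left out 1 of the 8 injected rats, it was 0.99 to 1.47 for Hba-a1, 0.97 to 1.45 for Hba-a2, 0.37 to 0.85 for Hbb and 1.23 to 1.54 for Slc4a1. The value of Hbb rested most on lean control rat 16, without which it was 0.37 (0.24), and on obese + TT rat 19, without which it was 0.48 (0.31).

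Over all genes, limma with Benjamini-Hochberg adjustment called 0 of 15176 genes (0%) in the untreated cohort, where 1466 had an unadjusted p under 0.05. It called 0 of 15259 genes (0%) in the injected cohort, where 1134 had an unadjusted p under 0.05. The paper, with DESeq2 on read counts, reported genes called in both comparisons at a false discovery rate under 0.05. The 0 calls here, on TPM, therefore do not show that the groups were alike. Groups that did not overlap, with every obese rat higher, were found for 45 genes of the untreated cohort (0.297%) and 361 genes of the injected cohort (2.37%). With every obese rat lower, there were 0.244% and 1.66% of the genes. Of the 4 genes, 1, Slc4a1, was among them in each cohort. Without rat 13, 767 genes of the injected cohort (5.03%) were so separated, and 3 of the 4 genes were, all but Hbb. Since the genes were chosen on these levels, these counts describe them and support nothing further.

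**Figure D2:**
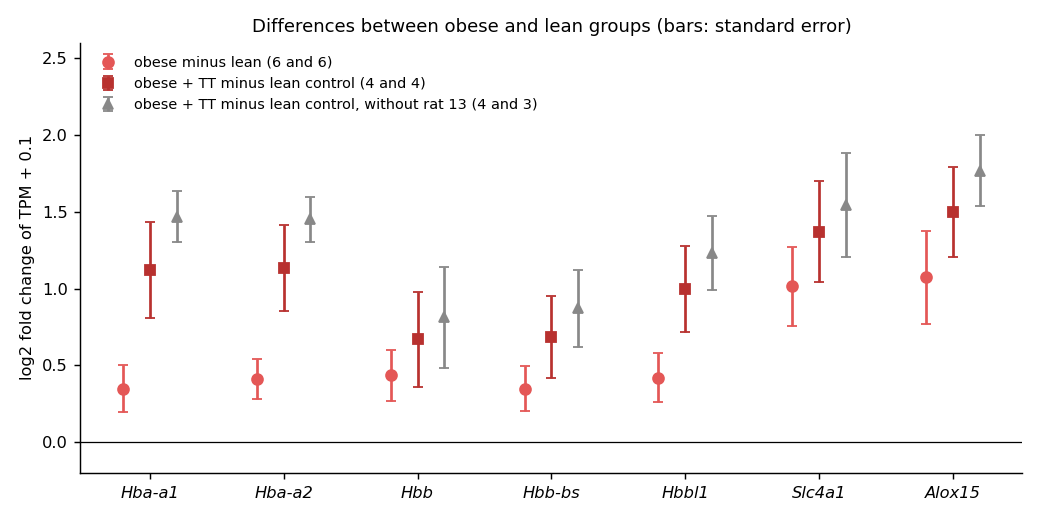
Log2 fold change of TPM + 0.1 (vertical axis) with its standard error (bars) for the 4 genes, for Hbb-bs and Hbbl1 and for Alox15, in the untreated cohort, in the injected cohort and in the injected cohort without rat 13. All points lie above 0, from 0.35 for Hba-a1 in the untreated cohort to 1.77 for Alox15 without rat 13.

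The other beta-type genes are described beside the 4 genes but are not independent of them. Hbbl1 was taken for its likeness to them in these same rats, and reads may have been split between beta copies. Of 13 other globin genes listed, 1 had an identifier, Hbb-bs (ENSRNOG00000047098), and Hbbl1 (ENSRNOG00000061299) was found by its likeness to the globins (below). Hbb-bs ranged from 264 to 436 TPM in the lean rats (median 320) and from 351 to 552 TPM in the obese rats (median 409). It was at 484, 306, 408 and 190 TPM in lean control rats 13 to 16 and at 555, 423, 700 and 464 TPM in obese + TT rats 17 to 20. Neither comparison passed the test: the log2 difference was 0.35 ± 0.15 (SE) in the untreated (limma adjusted p = 0.470) and 0.68 ± 0.27 (SE) in the injected cohort (limma adjusted p = 0.624).

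Hbbl1 ranged from 632 to 1082 TPM in the lean rats (median 820) and from 797 to 1469 TPM in the obese rats (median 1148). In the lean control rats 13 to 16 it was at 1695, 800, 1242 and 708 TPM, and in the obese + TT rats 17 to 20 at 2184, 1588, 2955 and 1851 TPM. Every obese + TT rat was above every obese rat of the untreated cohort, which was not so for any of the 4 genes. It was so for most listed epithelial markers: Kl, Folr1, Otx2, Clic6, Krt18, Slc4a5, Kcnj13, Enpp2 and Sostdc1. Aqp1 and Prlr overlapped, and Ttr was lower in every obese + TT rat. The share of all genes with such a gap between cohorts was not counted. The log2 difference between obese and lean was 0.42 ± 0.16 (SE) in the untreated (limma adjusted p = 0.414) and 1.00 ± 0.28 (SE) in the injected cohort (limma adjusted p = 0.518), and neither passed the test.

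Because the alpha copies, and likewise the beta copies, are near-identical or closely related genes, the authors' quantification may have split reads between them, and levels of single copies are uncertain. The ratio of Hba-a1 to Hba-a2 was 2.45 to 3.01 in all 20 rats, with means of 2.77 ± 0.20 (lean, SD, n = 6), 2.65 ± 0.10 (obese, SD, n = 6), 2.81 ± 0.20 (lean control, SD, n = 4) and 2.78 ± 0.16 (obese + TT, SD, n = 4). It did not set the groups apart. The ratio of Hbb-bs to Hbb was 0.26 to 0.36 in all 20 rats.

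The ratio of Hbbl1 to Hbb, in contrast, took separate ranges. The 12 untreated rats lay at 0.74 to 0.86, whereas the 4 obese + TT rats lay at 1.24 to 1.38. The lean control rats fell on both sides, with 1.25 and 1.297 in rats 13 and 16 and 0.84 in each of rats 14 and 15. The ratio thus differed between rats of the lean control group, which shared genotype and treatment label. The labels were taken as given. The ratio of the 3 beta-type to the 2 alpha-type transcripts was 0.64 to 0.80 without injection and 0.80 to 1.01 after testosterone. In the lean control rats it was 0.80, 1.16, 1.77 and 0.89 in rats 13 to 16, so that rats 14 and 15 held more beta-type than alpha-type transcript. The 2 rats were far apart in genes above 0, with 14968 in rat 14, the lowest of the 20, and 16772 in rat 15. The part of the cohort and of the counting in these ratios was not tested.

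**Figure D3:**
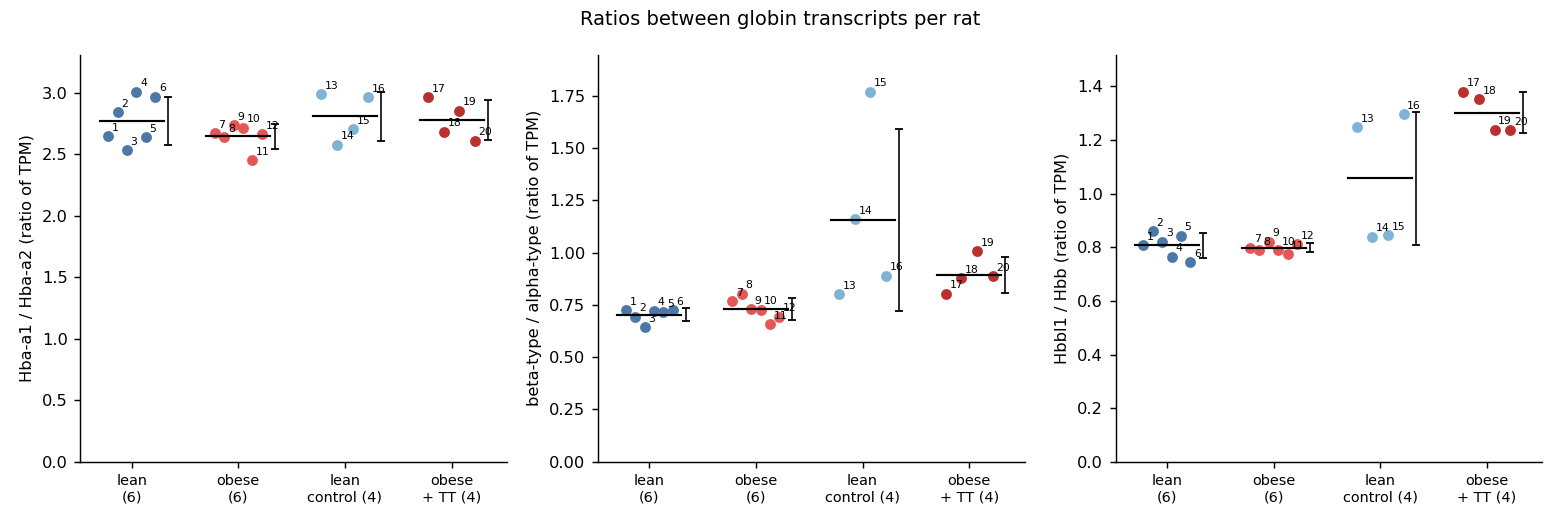
Ratios of TPM (vertical axes, from 0) of Hba-a1 to Hba-a2, of beta-type to alpha-type transcripts and of Hbbl1 to Hbb, with 1 numbered point per rat, a line at the group mean and a bar of ± 1 SD. The first ratio stays at 2.45 to 3.01, rats 14 and 15 stand above the rest in the second, and in the third rats 14 and 15 lie with the untreated rats at 0.84.

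Whether Slc4a1 followed the globins from rat to rat was examined within the groups of 6, and over the 20 rats after subtraction of the group means, since the groups themselves differ in level. No such relation passed its test. Within the lean rats, Pearson's r of log2(TPM + 0.1) between Slc4a1 and Hba-a1 was -0.18 (exact permutation p = 0.783, n = 6) with Spearman's rho of -0.029 (exact permutation p = 1). For Hba-a2 it was -0.25 (exact permutation p = 0.656) with rho of -0.31 (p = 0.564), and for Hbb -0.15 (exact permutation p = 0.781) with rho of -0.26 (p = 0.658). Lean rat 4 had the highest Hba-a1, Hba-a2 and Hbb of the lean rats and the lowest Slc4a1. Lean rat 6, with the second-highest globins, had the highest Slc4a1.

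Within the obese rats, r was -0.15 for Hba-a1 (exact permutation p = 0.717, n = 6, rho -0.32, p = 0.544), -0.23 for Hba-a2 (exact permutation p = 0.600, rho -0.32, p = 0.544) and -0.12 for Hbb (exact permutation p = 0.789, rho -0.14, p = 0.778). The highest Slc4a1 value, 0.73 TPM, was shared by rat 7, which was high in globins, and rat 12, which had the lowest Hba-a1, Hba-a2 and Hbb of the obese rats. Over the 20 rats centered on their group means, r was 0.32 for Hba-a1 (permutation p = 0.242, rho 0.18, p = 0.490), 0.30 for Hba-a2 (permutation p = 0.282, rho 0.16, p = 0.554) and 0.17 for Hbb (permutation p = 0.538, rho 0.072, p = 0.782).

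Hbb-bs, taken as a globin outside the 4 genes, gave r of -0.090 in the lean (exact permutation p = 0.869, rho -0.086, p = 0.919), 0.10 in the obese (exact permutation p = 0.883, rho -0.14, p = 0.778) and 0.32 in the 20 centered rats (permutation p = 0.235, rho 0.23, p = 0.386). Of these 12 relations, 0 had a two-sided permutation p under 0.05 before adjustment, and the Benjamini-Hochberg adjusted p was 0.883 for each r and 0.939 or 1 for each rho. Each r in a group of 6 rested on few rats. Without the 2 rats farthest from the median globin level, 4 rats remained in each of these groups, too few to read a relation from. There, r for Hba-a1, Hba-a2, Hbb and Hbb-bs became 0.95, 0.73, -0.41 and 0.0096 in the lean rats, and 0.82, 0.77, 0.41 and -0.32 in the obese rats. In the 20 centered rats, also without the 2 farthest, r became 0.31, 0.0033, 0.0081 and 0.081. The groups of 4 were too small for a correlation. In the injected cohort, rat 13 was the highest lean control rat for Hba-a1, Hba-a2 and Slc4a1, while rat 17 was the highest obese + TT rat for Slc4a1 and rat 19 for the 3 globins.

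Set against the globin transcripts, the level of Slc4a1 varied from rat to rat. The part of counting noise in this, at such low levels of Slc4a1, was not tested. Per 10000 TPM of the 5 globins, it was 0.13 to 0.50 TPM in the lean rats (0.35 ± 0.13, SD, n = 6) and 0.40 to 1.40 TPM in the obese rats (0.71 ± 0.37, SD, n = 6). The highest value was that of obese rat 12. It was 0.43, 0.65, 0.31 and 0.42 TPM in lean control rats 13 to 16 (0.45 ± 0.14, SD, n = 4) and 0.99, 0.78, 0.63 and 0.73 TPM in obese + TT rats 17 to 20 (0.78 ± 0.15, SD, n = 4). The ranges overlapped in both cohorts, with ratios of means of 2.04 and 1.73.

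**Figure D4:**
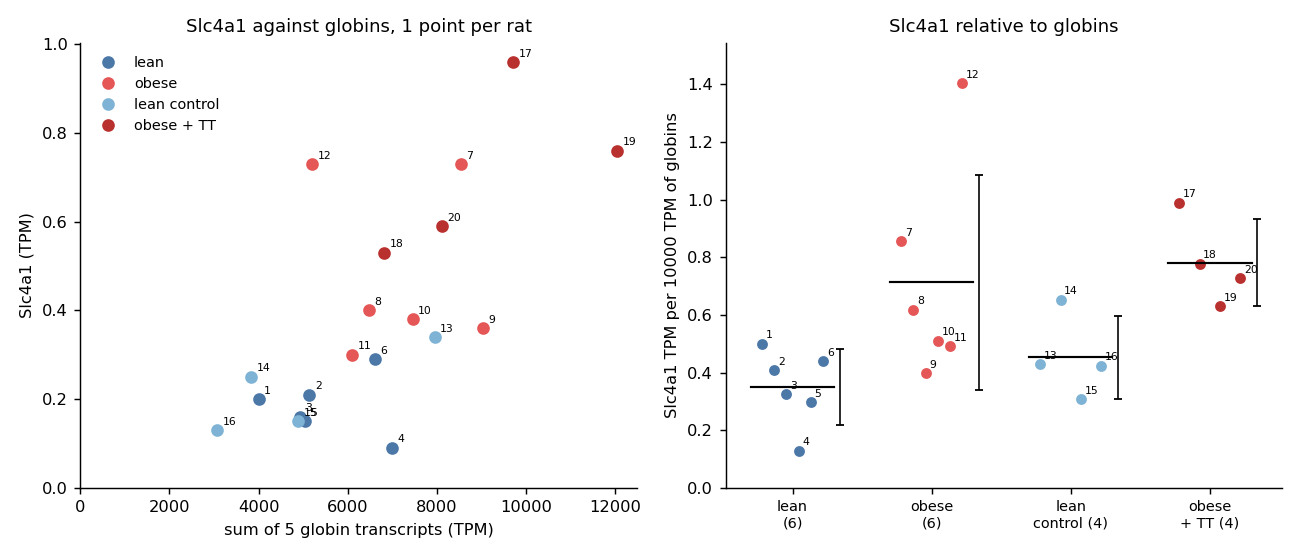
Left, Slc4a1 (vertical axis, TPM) against the sum of the 5 globin transcripts (horizontal axis, TPM), 1 numbered point per rat colored by group. Right, Slc4a1 per 10000 TPM of globins (vertical axis) by group with the mean and ± 1 SD, where obese rat 12 is the highest at 1.40 and lean rat 4 the lowest at 0.13.

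The genes most like the globins were ranked by Pearson's r, over the 20 rats centered on their group means, between log2(TPM + 0.1) and the mean of Hba-a1, Hba-a2 and Hbb, among the 12094 genes that averaged 1 TPM or more. These are descriptions over shared libraries. Hbbl1 came first (r = 0.96), Hbb-bs next (0.93) and ENSRNOG00000012557, which has no symbol in the tables used and a mean of 4.13 TPM, the third (0.93). After a gap, ENSRNOG00000000167 followed (0.75). Of the 10 most similar genes, 4 had a symbol. Cdc25b, a phosphatase that activates cyclin-dependent kinases, was at place 6 (0.73), and Alox15, a lipoxygenase of reticulocytes and some white cells, at place 10 (0.68). For Slc4a1, compared with the 15406 genes that averaged 0.1 TPM or more, the 5 most similar genes had r of 0.73 to 0.78 and none had a symbol. Between 9.69% (Hba-a1) and 25.1% (Hbb) of these genes were more like Slc4a1 than a globin was.

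Alox15, which degrades membranes of organelles as the reticulocyte matures, was low in all rats. It ranged from 0.33 to 0.99 TPM in the lean rats (median 0.45) and from 0.75 to 2.76 TPM in the obese rats (median 1.07). The groups overlapped, and the log2 difference of 1.07 ± 0.30 (SE) did not pass the test (limma adjusted p = 0.284). It was at 1.18, 0.41, 0.59 and 0.54 TPM in lean control rats 13 to 16 and at 1.84, 1.89, 2.52 and 1.71 TPM in obese + TT rats 17 to 20, without overlap. The log2 difference in the injected cohort was 1.497 ± 0.29 (SE, limma adjusted p = 0.375). Without rat 13 it was 1.77 ± 0.23 (SE, limma adjusted p = 0.0383), past the threshold. That removal was chosen after the values were seen, and rat 13 was also the highest lean control rat for Alox15. Without rats 13 and 14 the adjusted p was 0.105, and over the other fits that left out 1 rat it was 0.377 to 0.787 (limma). Cdc25b averaged 1.07 ± 0.18 TPM (lean) vs. 1.49 ± 0.19 TPM (obese, SD, n = 6 each) and 1.23 ± 0.33 TPM (lean control) vs. 2.28 ± 0.43 TPM (obese + TT, SD, n = 4 each). It did not pass the test in either cohort (adjusted p = 0.319 and 0.484, limma).

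The other genes of the red cell could be followed only in small part, since 6 of the 63 listed genes had an identifier in the tables used. None of the 6 had an adjusted p under 0.05 in limma in either cohort, against 0% of all genes tested. In each cohort 4 had a higher and 2 a lower mean in the obese group, with a median log2 fold change of 0.07 in the untreated and 0.10 in the injected cohort. Besides Hbb-bs and Alox15 these were Urod and Tmem14c of heme synthesis, Dmtn of the membrane skeleton and Tspan33, a tetraspanin of red cell precursors. Urod averaged 91.7 ± 6.17 TPM (lean) vs. 97.0 ± 9.47 TPM (obese, SD, n = 6 each). Dmtn averaged 50.9 ± 4.45 TPM (lean) vs. 43.2 ± 5.60 TPM (obese, SD, n = 6 each), opposite in direction to the globins, with a log2 difference of -0.24 ± 0.09 (SE, limma adjusted p = 0.388). In the injected cohort it averaged 72.7 ± 3.51 TPM (lean control) vs. 76.6 ± 2.69 TPM (obese + TT, SD, n = 4 each), a log2 difference of 0.08 ± 0.05 (SE, limma adjusted p = 0.788). The 2 genes with a lower mean there were Tmem14c, with a log2 difference of -0.12, and Tspan33, with -0.04. Tmem14c and Tspan33 were at 68.1 to 85.0 TPM and 71.8 to 125.4 TPM over all rats. These levels are far above that of Slc4a1 in every rat, and these genes are known outside the red cell too.

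Genes that clear hemoglobin and heme, and markers of other cells, were set beside the globins. Of 10 clearance genes 2 had an identifier. Lrp1, a receptor of the heme carrier hemopexin, averaged 28.4 ± 3.35 TPM (lean) vs. 31.4 ± 9.27 TPM (obese, SD, n = 6 each) and 92.1 ± 11.8 TPM (lean control) vs. 98.0 ± 9.53 TPM (obese + TT, SD, n = 4 each), with no overlap between the untreated and the injected rats. Dmtn and Tspan33 were also higher in every injected rat, as were the epithelial markers Kl, Folr1, Otx2, Clic6, Krt18, Slc4a5, Kcnj13, Enpp2 and Sostdc1. Plvap and Ttr were lower, while Slc48a1, Aqp1 and Prlr overlapped. The share of all genes with such a gap between cohorts was not counted. Slc48a1, a heme transporter, averaged 64.3 ± 2.16 TPM (lean control) vs. 72.8 ± 2.43 TPM (obese + TT, SD, n = 4 each), a log2 difference of 0.18 ± 0.05 (SE, limma adjusted p = 0.518). Plvap, the single endothelial marker, had log2 differences of 0.13 ± 0.09 in the untreated and 0.10 ± 0.48 in the injected cohort (SE, limma adjusted p = 0.716 and 0.976). Among the 12 epithelial markers 0 passed the test in either cohort with all rats. Without rat 13, Prlr, the prolactin receptor, was past the threshold in the injected cohort, lower in obese + TT with a log2 difference of -0.66 ± 0.09 (SE, limma adjusted p = 0.0485, and 0.169 without rats 13 and 14). Their summed level was 321106 to 398238 TPM in lean, 332406 to 401553 TPM in obese, 286291 to 318313 TPM in lean control and 272283 to 308957 TPM in obese + TT rats. Ttr averaged 340007 ± 27433 TPM (lean) vs. 347007 ± 25275 TPM (obese, SD, n = 6 each), and Enpp2, the lysophospholipase autotaxin, 3931 ± 344 vs. 3894 ± 212 TPM (SD, n = 6 each). Of the 10 neutrophil, 11 platelet and 11 lymphocyte markers listed, 0 had an identifier, so the other blood cells were not analysed here. The part of blood content in the levels above was not tested.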

How the data were processed

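RNA was isolated from the choroid plexus of 20 female Zucker rats and sequenced as paired-end reads, with 1 library for each animal. The authors mapped the reads with STAR 2.7.9a to the rat genome Rnor_6.0. The submitters' processing notes also list RSEM 1.3.3 and DESeq2 3.16. Per animal, the deposited table holds TPM and FPKM of 32883 Ensembl genes, and FPKM was used only as an alternative. The program behind TPM and FPKM is not given in the sources used here, and counts were not analysed here. Sequencing depth per library could not be read from these values. Across 190 pairs of libraries, the fullest bin (width 0.04 on the log2 scale) of FPKM ratios, over genes between 0.5 and 2 FPKM, held 2.81 to 6.98% of genes, so whole reads were not recovered. Among 42 pairs of one group at most 1.92% of values were identical, so no library was counted as a duplicate.

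Symbols came from the study's gene tables, which name 2616 of the identifiers, and 40 of these symbols were replaced by RefSeq's through their gene number. The genes and marker lists were chosen with earlier results of these data known. Named genes were the 4 genes, listed globin and red cell genes with a symbol, the 10 and 5 genes most like the globins and Slc4a1, any listed gene that passed the test, and the 2 most abundant genes of each other list.

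In R 4.3.3, limma 3.58.1 was run within each cohort on log2(TPM + 0.1), keeping genes that averaged 0.1 TPM or more there, with a trend in eBayes and Benjamini-Hochberg adjustment. The threshold was an adjusted p of 0.05. The difference between cohorts was fitted over 20 rats. Correlations used exact permutation within groups of 6 and 100000 permutations within groups for the 20 rats (scipy 1.17.1). The tests were checked on simulated TPM. Alternatives changed the pseudocount, the minimum level, the eBayes options, the scaling, the unit and the rats used. Those without rats 13 and 14, and those for Hbbl1 and Alox15, were chosen after seeing the data. Promoter windows were from RefSeq, build GRCr8, matched by symbol.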

Additional observations from a re-analysis of the deposited data

Results flagged for a closer look

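For 100 sets of values (1 gene, sum or ratio in 1 group of 4 to 6 rats), it was checked whether 1 rat lay far from the rest. That was so in 5, where chance would give about 5 if the sets were independent. They are not, since sums and ratios share genes, and the sum of the 5 globins entered both as TPM and as a percentage. Lean control rat 13 accounted for 3 of the 5. Its values for Hba-a1 and Hba-a2 are not independent of each other. Nor is its value for Cdc25b, a gene taken for its likeness to the globins in these same rats. Its Hba-a1 level was 3302.78 TPM, with rats 14 to 16 between 1213.2 and 1286.82 TPM, and its Hba-a2 level was 1105.64 TPM, against 409.15 to 495.78 TPM. Its Cdc25b level was 1.72 TPM, against 1.04 to 1.09 TPM. Obese rat 7 was at 2.76 TPM for Alox15, and the other 5 obese rats were at 0.75 to 1.32 TPM. Obese rat 11 had a ratio of Hba-a1 to Hba-a2 of 2.45, and the other 5 obese rats had ratios of 2.64 to 2.74.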

How the results depend on the processing

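The log2 fold changes of the 4 genes, Hbb-bs, Hbbl1 and Alox15 were positive in both cohorts in 284 of 284 alternative fits, including those without single rats. The fits share most of their rats, and the genes were chosen with results of these data known. The count is therefore a description and supports nothing further. With a pseudocount of 1 TPM in place of 0.1, that of Slc4a1 was 0.32 in the untreated and 0.49 in the injected cohort. With a minimum mean of 1 TPM, Slc4a1 gave no value. The number of genes with an adjusted p under 0.05 in limma, 0 in each comparison, became 3 (untreated) and 6 (injected) in a fit of all 20 libraries, 1 and 2 with median-ratio scaling, and 1 in the untreated rats with FPKM. Leaving out each rat in turn gave 0 to 1 genes in the untreated cohort (1 without rat 2, 6 or 7) and 0 to 25 in the injected cohort. The 25 were found without rat 13, with 1, 3, 2, 4 and 1 without rats 14, 15, 17, 19 and 20, and 4 without rats 13 and 14. Of the 6 red cell genes, 0 to 1 passed in the injected cohort, the 1 being Alox15 without rat 13. For the difference between cohorts, the 0 genes became 2 with a pseudocount of 0.01, 1 with a minimum mean of 1 TPM, 1 with robust eBayes, 10 without Ttr, 2 with median-ratio scaling, 2 with FPKM, 2 without rats 13 and 14, and 0 to 14 without single rats (14 without rat 13). Except for the stated construction of each alternative, the cause was not tested.

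None of the 188 alternative correlations of Slc4a1 with a globin passed the threshold. Several changed sign in the lean rats. There, without Ttr, r was 0.0046 for Hba-a1, 0.021 for Hbb and 0.089 for Hbb-bs. With median-ratio scaling, it was 0.045 for Hba-a1, 0.0061 for Hba-a2, 0.068 for Hbb and 0.13 for Hbb-bs. With a pseudocount of 1 TPM, it was 0.0026 for Hbb-bs. Leaving out single rats gave r of -0.82 to 0.59 for Hba-a1, -0.84 to 0.36 for Hba-a2, -0.89 to 0.68 for Hbb and -0.79 to 0.76 for Hbb-bs in the lean rats, each highest without rat 4. In the obese rats the ranges were -0.57 to 0.43, -0.70 to 0.40, -0.60 to 0.62 and -0.36 to 0.57. In the 20 centered rats, r for Hbb was -0.016 to 0.34, lowest without rat 16. No paired analysis was possible because the replicate numbers run through all 20 rats and are shared by no groups. The paper's methods give an intended sequencing output, but the depth reached by each library is unknown. Levels near 0.1 TPM, such as those of Slc4a1, may rest on few reads.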
